A study of Arabidopsis thaliana with 4 samples.

Results

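Pattern receptors are membrane kinases with which plant cells sense fragments of microbes and peptides released from damaged tissue. The 10 genes of this group were taken by locus from a table of 33602 genes. They are the receptor genes FLS2 (AT5G46330), EFR (AT5G20480), PEPR1 (AT1G73080), PEPR2 (AT1G17750) and LYK5 (AT2G33580), the co-receptor genes CERK1 (AT3G21630), BAK1 (AT4G33430) and SOBIR1 (AT2G31880), the cytoplasmic kinase gene BIK1 (AT2G39660) and FRK1 (AT2G19190), a receptor kinase gene known as a transcript marker of flagellin perception. All 10 loci carry these names in the reference annotation. A mean of at least 1 RPKM (reads per kilobase of gene and per 1000000 scaled reads) over the 4 libraries was needed for the test, and 9 of the 10 reached it. The exception was PEPR2.

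Whole seedlings of the Columbia ecotype of Arabidopsis thaliana were 14 days old and had grown in liquid medium without nitrogen. One group was sampled 0.5 h after transfer to that medium with 2.5 mM glutamine added, and the other at 0 h, without glutamine. No genotype or other agent differs between the groups, and each has 2 libraries of total RNA. The question, per the title, is which genes answer to glutamine within this time. The 4 samples hold no seedlings transferred without glutamine, so glutamine, transfer and elapsed time cannot be told apart.

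In this pathway, FLS2 and EFR bind peptides of bacterial flagellin and elongation factor Tu, and PEPR1 and PEPR2 bind Pep peptides that the plant cuts from its own PROPEP precursors. These receptors join BAK1 on binding their ligand. LYK5 binds chitin and acts with CERK1, and SOBIR1 is the partner kinase of receptor-like proteins that lack a kinase domain. BIK1 is released from activated complexes and phosphorylates the oxidase RBOHD, which leads to a burst of reactive oxygen and to new transcription. In whole seedlings, these genes are read from a mixture of root and shoot cells, and fewer cells of a type and less RNA per cell cannot be told apart.

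Gene reads, recovered from the steps of the deposited values, numbered 26075046 and 20429739 in the 0.5 h libraries, against 26069135 and 27203588 in those of 0 h. A member had between 25.3 and 4409 reads in a library, the lowest in PEPR2 and the highest in SOBIR1. Chloroplast genes took 0.0848 and 0.379% of the reads at 0.5 h and 0.0974 and 0.0569% at 0 h, so the 2nd library at 0.5 h stood apart. The summed level of 8 shoot markers was 25120 and 25361 RPKM at 0.5 h and 30086 and 30861 RPKM at 0 h. It was thus lower at 0.5 h, and its part in the changes between the groups was not tested. Of these markers, LHCB1.3 had the highest mean, 13238 ± 447 RPKM at 0.5 h and 15868 ± 183 at 0 h (SD, n = 2 each), followed by RBCS1A, 7848 ± 344 and 7822 ± 199 RPKM, and neither was called. Of the 8, 0 were called higher and 2 lower, namely LHCA4 and LHCB6, chosen here after their values were seen, at 35.8 and 37.7% of their level at 0 h (limma adjusted p = 0.0053 and 0.0056). CA1 and GAPA1 had higher means at 0.5 h and were not called. The summed level of 7 root markers was 193 and 177 RPKM at 0.5 h and 169 and 303 at 0 h, most of it from PYK10, with 166 ± 0.593 and 215 ± 81.4 RPKM. CASP1, a marker of the root endodermis, had 10.8 ± 3.12 and 11.8 ± 5.78 RPKM. Without PYK10 the root sum was 28.2 and 11.2 RPKM at 0.5 h and 10.9 and 30.4 at 0 h, so that it differed within both groups and did not follow them. Between 1 and 4 of the 7 root markers were below 1 RPKM in a library, the lowest being COBL9 with 0.0676.

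At 0.5 h PEPR1 and SOBIR1 had risen and FRK1 had fallen, and the other 6 tested members did not pass the test. Tests were made with limma on log2(RPKM + 1), with p-values adjusted by Benjamini-Hochberg over 18039 genes and a threshold of 0.05. Fold changes are on that scale, which understates the change of low genes, and are given with the standard error (SE) of the fit. Of all genes tested, 6.71% were called higher and 5.11% lower, against 2 and 1 of the 9 members. The members were chosen with earlier results of these data known. The groups did not overlap in 8 of the 9 members, as in 59.7% of all genes, so a lack of overlap is common among these libraries. The median change of the 9 was 0.09, beside -0.03 over all genes.

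**Figure D1:**
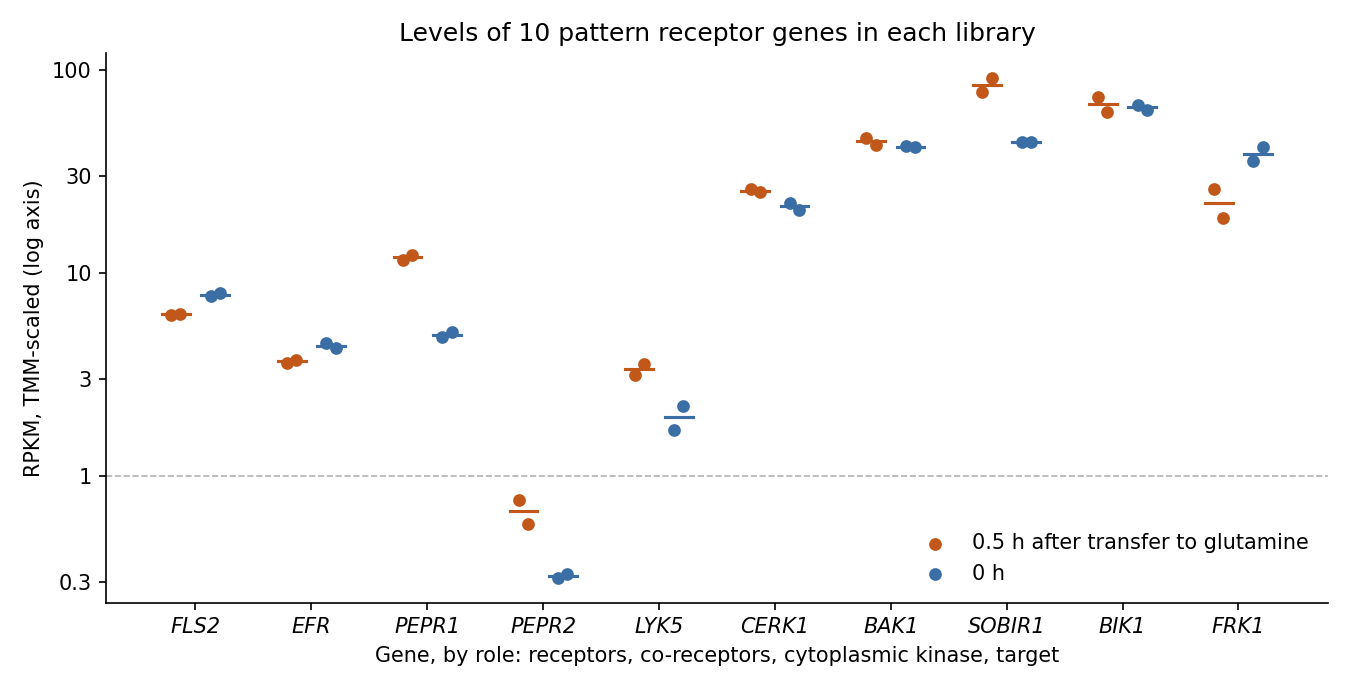
RPKM of the 10 genes in each library on a log axis, with 0.5 h left of 0 h for each gene. Points are libraries, short lines are means of 2, and the dashed line is the minimum mean of 1 RPKM for testing. PEPR1 and SOBIR1 lie higher at 0.5 h and FRK1 lower, while PEPR2 lies below 1 RPKM throughout.

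Among the bacterial pattern receptors, FLS2 had 6.23 and 6.27 RPKM at 0.5 h, against 7.68 and 7.94 RPKM at 0 h. Both values at 0.5 h lay below both at 0 h, yet the difference of -0.28 ± 0.13 did not pass (limma adjusted p = 0.20), with a 95% interval from -0.58 to 0.02. EFR had 3.61 and 3.71 RPKM at 0.5 h, against 4.52 and 4.25 RPKM at 0 h. Its difference was -0.21 ± 0.14 (limma adjusted p = 0.37), with an interval from -0.54 to 0.13. The groups of EFR did not overlap either. Neither gene had shared reads, and both overlap a gene on the opposite strand in the reference annotation. Whether strand was used in counting is unstated, and reads of such overlapping genes cannot be separated.

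PEPR1, the main receptor of the Pep1 peptide, had 11.5 and 12.2 RPKM at 0.5 h, against 4.81 and 5.13 RPKM at 0 h. Both libraries at 0.5 h were thus well above both at 0 h, and each pair lay close together. Its mean was 2.40 times that at 0 h (11.9 ± 0.490 and 4.97 ± 0.227 RPKM, SD, n = 2 each). The fitted change was 1.11 ± 0.13 (limma adjusted p = 0.0060), the largest among the 9 tested members. It passed under 14 of 15 other settings, with an adjusted p from 0.0020 to 0.11, and ended only without a minimum on the mean RPKM, where 2 of 33602 genes were called. With limma-voom on the recovered reads, which does not add 1 RPKM to each value, the change was 1.26 ± 0.14.

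PEPR2, the second Pep receptor, had 0.762 and 0.581 RPKM at 0.5 h, against 0.316 and 0.328 RPKM at 0 h. These levels rest on 69.4 and 40.0 reads at 0.5 h and 25.3 and 29.2 reads at 0 h, and the gene was not tested. Both libraries at 0.5 h lay above both at 0 h, and the ratio of the means was 2.08 (0.671 ± 0.128 and 0.322 ± 0.00816 RPKM, SD, n = 2 each). The exact Poisson 95% intervals, which cover counting error only, were 0.585 to 0.951 and 0.410 to 0.781 RPKM for the 1st and 2nd libraries at 0.5 h, and 0.199 to 0.453 and 0.214 to 0.459 RPKM for those at 0 h. The interval of the 1st library at 0.5 h thus lay clear of both at 0 h, and that of the 2nd overlapped both. At 0.5 h and 0 h alike, PEPR1 was the more abundant of the pair. Its level per length was 15.2 and 21.1 times that of PEPR2 at 0.5 h, and 15.2 and 15.6 times at 0 h. The fractional reads of PEPR2 added up to whole numbers, within 0.05 read, with those of its neighbour CSTF77, a gene for an RNA cleavage factor that meets it on the opposite strand. Of the reads of both, PEPR2 held 11.1 and 11.0% at 0.5 h and 4.02 and 4.04% at 0 h.

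For chitin, LYK5 had 3.13 and 3.56 RPKM at 0.5 h, against 1.68 and 2.22 RPKM at 0 h. The groups did not overlap, and the difference of 0.56 ± 0.17 missed the threshold (limma adjusted p = 0.086). Its 95% interval, 0.15 to 0.98, is for the single gene and not adjusted for the number of genes. It was covered by 190 and 164 reads in the 0.5 h libraries and by 90.0 and 133 in those of 0 h. Under 14 other settings its adjusted p lay between 0.063 and 0.37. CERK1, the kinase that signals with LYK5, had 25.8 and 25.0 RPKM at 0.5 h, against 22.0 and 20.5 RPKM at 0 h. Its difference was 0.25 ± 0.13 (limma adjusted p = 0.25), with an interval from -0.05 to 0.55. Per length, CERK1 was 8.25 and 7.01 times as abundant as LYK5 at 0.5 h, and 13.1 and 9.21 times at 0 h.

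BAK1, the co-receptor shared by FLS2, EFR and the Pep receptors, had 46.2 and 42.7 RPKM at 0.5 h, against 41.9 and 41.5 RPKM at 0 h. The difference was 0.09 ± 0.13 (limma adjusted p = 0.70), and its 95% interval ran from -0.22 to 0.40. Like FLS2 and EFR, BAK1 had no shared reads and overlaps a gene on the opposite strand in the reference annotation. BIK1 had 73.5 and 62.0 RPKM at 0.5 h, against 66.8 and 63.4 RPKM at 0 h, and was the single tested member whose groups overlapped. Its difference was 0.05 ± 0.15 (limma adjusted p = 0.84, interval -0.30 to 0.40). A 2-fold change, which is 1 on the log2 scale, lies outside both intervals. Within a library, BAK1 was 4.00 and 3.49 times as abundant per length as PEPR1 at 0.5 h, and 8.71 and 8.10 times at 0 h. Against FLS2 the same ratio was 7.42 and 6.81 at 0.5 h, and 5.45 and 5.23 at 0 h. Against EFR it was 12.8 and 11.5 at 0.5 h, and 9.27 and 9.77 at 0 h. The ratio of BAK1 to its receptors thus had lower values at 0.5 h for PEPR1 and higher ones for FLS2 and EFR, and these ratios were not tested.

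**Figure D2:**
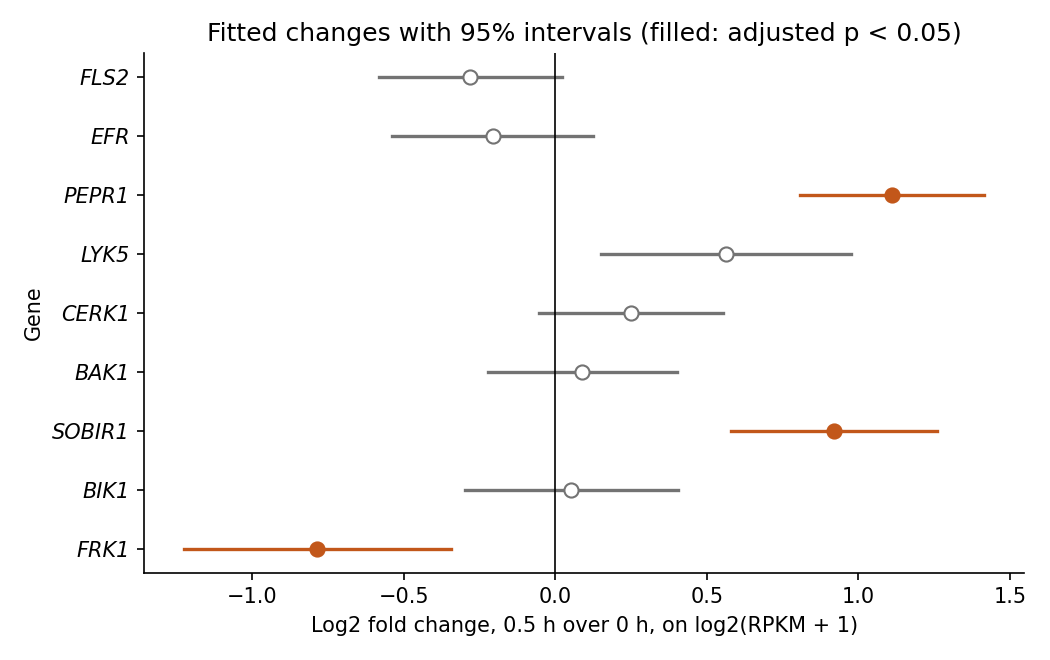
Fitted log2 fold changes of the 9 tested genes, 0.5 h over 0 h, on the log2(RPKM + 1) scale. Points are fitted values, lines are 95% intervals for each gene on its own, and filled points have a limma adjusted p below 0.05. PEPR1 (1.11) and SOBIR1 (0.92) lie above 0, FRK1 (-0.79) lies below, and the intervals of FLS2, EFR, CERK1, BAK1 and BIK1 include 0.

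SOBIR1 had 77.9 and 90.9 RPKM at 0.5 h, against 44.2 and 43.8 RPKM at 0 h. Its level at 0.5 h was 1.92 times that at 0 h (84.4 ± 9.22 and 44.0 ± 0.276 RPKM, SD, n = 2 each). The fitted change was 0.92 ± 0.14 (limma adjusted p = 0.013). Without the 2nd library at 0.5 h it was 0.81 ± 0.17 and no longer passed (adjusted p = 0.057). A share of up to 0.592 of its reads was counted as multi-mapped. The fractional reads of SOBIR1 added up to whole numbers with those of RAP, a gene for an RNA-binding protein of the chloroplast that overlaps it on the opposite strand. The reads of both genes came to 5205 and 4527 at 0.5 h and 3201 and 3583 at 0 h. Of these, SOBIR1 was given 84.7 and 86.4% at 0.5 h and 69.4 and 68.4% at 0 h. Taken as 1 gene, the pair changed by 0.60 ± 0.14 (limma adjusted p = 0.036). RAP alone had 11.1 ± 0.164 RPKM at 0.5 h and 15.5 ± 0.400 at 0 h, and its difference of -0.45 ± 0.12 did not pass (limma adjusted p = 0.062). The rise thus holds for the pair, and its size for SOBIR1 alone depends on how shared reads were split.

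**Figure D3:**
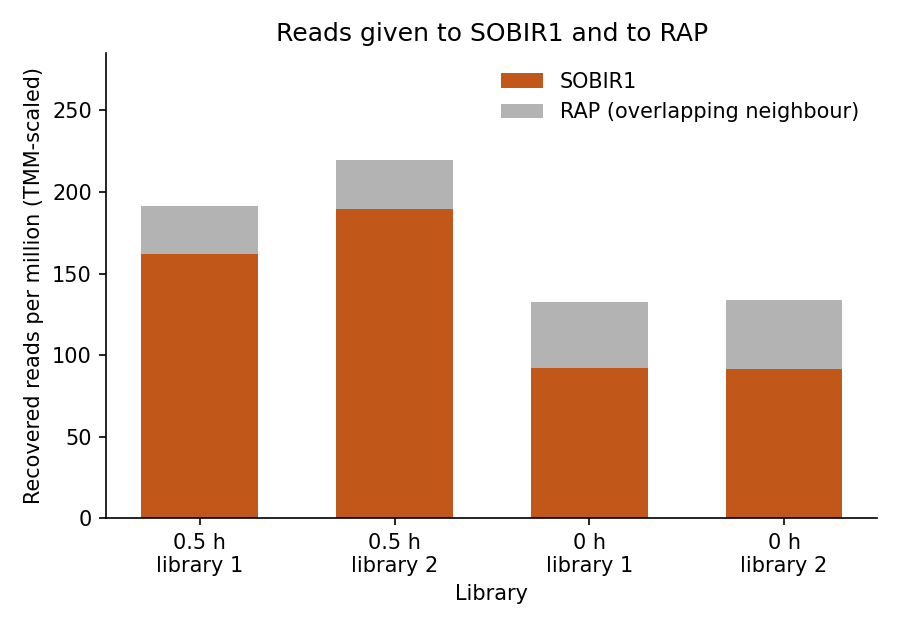
Recovered reads given to SOBIR1 and to its overlapping neighbour RAP in each library, stacked, per 1000000 reads after TMM scaling. The bars of both genes together reach 192 and 219 at 0.5 h and 133 and 134 at 0 h, with RAP at 29.3 and 29.9, and at 40.7 and 42.2.

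FRK1, the transcript marker of flagellin perception, had 25.8 and 18.6 RPKM at 0.5 h, against 35.5 and 41.6 RPKM at 0 h. Both libraries at 0.5 h were below both at 0 h, and the libraries of each group stood further apart than those of PEPR1. Its mean at 0.5 h was 57.5% of that at 0 h (22.2 ± 5.09 and 38.6 ± 4.29 RPKM, SD, n = 2 each). The fitted change was -0.79 ± 0.19 (limma adjusted p = 0.040), close to the threshold. The call ended under 8 of 15 other settings. Leaving out the 2nd library at 0.5 h gave -0.56 (adjusted p = 0.15), and leaving out the 1st or the 2nd at 0 h gave -0.90 and -0.67 (adjusted p = 0.090 and 0.16), each short of the threshold. Values under all 15 settings were negative, between -1.01 and -0.56. FRK1 had no shared reads. AT2G19180, which overlaps it on the opposite strand, had 49.0 ± 1.77 RPKM at 0.5 h and 68.0 ± 6.35 at 0 h and did not pass (-0.46 ± 0.14, limma adjusted p = 0.084).

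Ordered by level per length at 0.5 h, the genes ran SOBIR1, BIK1, BAK1, CERK1, FRK1, PEPR1, FLS2, EFR, LYK5 and PEPR2. At 0 h the order was BIK1, SOBIR1, BAK1, FRK1, CERK1, FLS2, PEPR1, EFR, LYK5 and PEPR2. SOBIR1 stood above BIK1 at 0.5 h and below it at 0 h, and PEPR1 likewise stood above FLS2 at 0.5 h and below it at 0 h. PEPR1 had 1.85 and 1.95 times the level of FLS2 at 0.5 h, and 0.626 and 0.646 times at 0 h. Neighbours in the order overlapped in a single case at each time, CERK1 and FRK1 at 0.5 h, and BAK1 and FRK1 at 0 h. With 2 libraries a group, such gaps describe these libraries.

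The genes whose values over the 4 libraries lay closest to those of PEPR1, by Euclidean distance of centred log2 values among 18038 genes, were AT5G43520, BR6OX2 and AT2G23680. AT5G43520 codes for a C1-domain protein, BR6OX2 for a brassinosteroid oxidase and AT2G23680 for a protein of the WCOR413 family. Their distances were 0.0397, 0.0451 and 0.0529 and their changes 1.11, 1.08 and 1.16. The closest to FRK1 were AT1G45229, an uncharacterized gene, PAP8, a purple acid phosphatase gene, and GLDP2, a gene for the P-protein of glycine decarboxylase. Their distances were 0.0244, 0.0534 and 0.0564. With 4 libraries, likeness of this kind rests mainly on the difference between the groups.

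Across the rest of the pathway, 103 genes in 6 lists were read from the same fit. Of the 99 tested, 20 rose and 1 fell, which is 20.2 and 1.01%, beside 6.71 and 5.11% of all genes. The lists were chosen with earlier results of these data known, so these shares describe the chosen genes only. With the 1st or the 2nd library at 0.5 h left out, 16 and 7 of the list genes rose, against 1158 and 506 of all genes, and with the 1st or the 2nd at 0 h left out, 9 and 8 rose, against 545 and 548 of all genes. In each of these 4 fits 0 list genes fell, while 824, 271, 233 and 378 of all genes did, in the same order. Among the other receptors for patterns and peptides, 3 of 18 tested genes rose and the remaining 15 did not pass, with a median of 0.14. RLK7, the receptor of the PIP1 peptide, had 121 and 159 RPKM at 0.5 h, against 77.5 and 88.8 RPKM at 0 h (0.74 ± 0.18, limma adjusted p = 0.044). The wall-associated kinase genes WAK1 and WAK2 rose by 1.20 ± 0.21 and 0.65 ± 0.15, and up to 0.193 and 0.158 of their reads were multi-mapped. The sizes depended on the pseudocount, and were 1.91 and 0.80 with 0.1 RPKM added, 0.47 and 0.36 with 5 RPKM added, and 2.03 and 0.82 with limma-voom, all of them called. NILR1, a receptor gene of the response to nematodes, had 5.78 ± 0.00818 RPKM at 0.5 h and 3.85 ± 0.0562 at 0 h and did not pass (limma adjusted p = 0.065). All 3 calls ended when some single library was left out. RLK7 did not pass without the 2nd library at 0.5 h or either one at 0 h (adjusted p = 0.18, 0.17 and 0.082), WAK1 without the 2nd at 0.5 h (0.077) or the 1st at 0 h (0.088), and WAK2 without any one of the 4 (0.071 to 0.20).

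Of 18 tested co-receptors and regulators of receptor complexes, 2 rose and 16 did not pass, with a median of 0.19. The share risen was 11.1%, beside 6.71% of all genes. CPK28, a calcium-dependent kinase that promotes turnover of BIK1, had 89.4 and 98.4 RPKM at 0.5 h, against 26.2 and 25.5 RPKM at 0 h. Its change, 1.82 ± 0.13 (limma adjusted p = 0.0044), was larger than that of any member. SERK4, the close relative of BAK1 also known as BKK1, had 45.1 and 39.1 RPKM at 0.5 h, against 18.1 and 18.6 RPKM at 0 h (1.15 ± 0.14, limma adjusted p = 0.0062). Up to 0.558 of its reads were counted as multi-mapped, and its reads added up to whole numbers with those of its copy SERK5. Added as 1 gene, SERK4 and SERK5 changed by 0.89 ± 0.13 (limma adjusted p = 0.010). BIR1, a kinase that binds BAK1 and restrains cell death, had 51.0 ± 4.43 RPKM at 0.5 h and 37.0 ± 1.69 at 0 h (limma adjusted p = 0.086). FER, a receptor of RALF peptides, had 107 ± 0.931 and 78.6 ± 1.09 RPKM (limma adjusted p = 0.083).

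Receptor-like cytoplasmic kinases and early signalling genes had 7 of 22 members risen and 15 not past the test, with a median of 0.20. That is 31.8% risen, beside 6.71% of all genes. RBOHD, the oxidase that BIK1 phosphorylates, had 43.2 and 37.8 RPKM at 0.5 h, against 12.7 and 13.3 RPKM at 0 h (1.57 ± 0.13, limma adjusted p = 0.0047). MKK4, a kinase of the MAP kinase cascade, had 22.4 and 29.8 RPKM at 0.5 h, against 8.59 and 10.3 RPKM at 0 h (1.37 ± 0.17, limma adjusted p = 0.0072). XLG2, a G protein found in FLS2 and BIK1 complexes, rose by 0.81 ± 0.13, and MAPKKK5, which acts downstream of CERK1, by 0.70 ± 0.13. Fewer genes of this list rose with any single library left out, as was the case among all genes. MAPKKK5 did not pass without the 2nd at 0.5 h (adjusted p = 0.078). XLG2 and MAPKKK5 no longer passed when the 1st library at 0 h was left out (adjusted p = 0.065 and 0.094) or the 2nd (0.052 and 0.090).

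Of 13 peptide ligand precursors and their proteases, RALF33 rose and the other 12 did not pass, with a median of 0.29. This share, 7.69%, was near the 6.71% of all genes that rose. RALF33, the precursor of a peptide read by FER, had 356 and 396 RPKM at 0.5 h, against 200 and 158 RPKM at 0 h (1.07 ± 0.18, limma adjusted p = 0.014). Without the 2nd library at 0.5 h its adjusted p was 0.073. PROPEP1, precursor of the PEPR1 ligand, had 8.35 ± 0.852 RPKM at 0.5 h and 5.20 ± 1.69 at 0 h and did not pass (limma adjusted p = 0.10). PROPEP3 had 32.8 ± 6.56 and 22.9 ± 5.05 RPKM (limma adjusted p = 0.16). MC4, the metacaspase that cuts PROPEP1, had 98.5 ± 3.25 and 80.9 ± 9.04 RPKM (limma adjusted p = 0.26).

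Early pattern-response genes, which are known to rise soon after flagellin or chitin, had 7 of 17 members risen and 1 fallen, with a median of 0.27. As shares these are 41.2 and 5.88%, beside 6.71 and 5.11% of all genes. The other 9 did not pass, among them WRKY22 (0.12 ± 0.18), WRKY29 (0.18 ± 0.16) and WRKY11 (-0.62 ± 0.23). MYB51, a regulator of indole glucosinolate synthesis, had 147 and 161 RPKM at 0.5 h, against 81.1 and 73.5 RPKM at 0 h (0.98 ± 0.14, limma adjusted p = 0.011). The zinc finger gene ZAT12 rose by 1.08 ± 0.20, CYP81F2 of glucosinolate synthesis by 0.80 ± 0.15, and WRKY33, a transcription factor of the response to fungi, by 0.74 ± 0.14. WRKY53 was named after its values were seen, because it was the single gene of this list called lower. It had 17.3 and 16.0 RPKM at 0.5 h, against 25.8 and 24.5 RPKM at 0 h (-0.57 ± 0.13, limma adjusted p = 0.035). With the reads of AT4G23800, which overlaps it, the change was -0.50 ± 0.12. With any single library left out, fewer genes of this list rose, as was the case among all genes. CYP81F2 and WRKY33 did not pass without any one of the 4 libraries (adjusted p = 0.051 to 0.096), and MYB51 and ZAT12 did not without the 2nd at 0.5 h (0.054 and 0.076). WRKY53 did not pass without any one of the 4 either (0.055 to 0.17). FRK1, known as a gene of this class, fell.

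Genes for quality control in the endoplasmic reticulum, on which the folding of EFR is known to depend, had a median of -0.03. Of 11 tested, 0 passed limma, while 6.71% of all genes were called higher and 5.11% lower. None of the 11 had an unadjusted p below 0.05, and 0 were called by limma-voom. The co-chaperone gene SDF2 had 50.9 ± 9.66 RPKM at 0.5 h and 62.1 ± 3.39 at 0 h, and the chaperone gene BIP1 had 65.8 and 58.7 RPKM at 0.5 h, against 53.4 and 50.7 RPKM at 0 h. The calreticulin genes CRT1 and CRT2 had 92.1 ± 15.8 and 44.3 ± 12.5 RPKM at 0.5 h, against 109 ± 3.65 and 55.3 ± 0.555 RPKM at 0 h.

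The wider family of receptor kinases, matched by product names in the reference annotation, held 380 genes. Of the 251 tested, 35 rose and 6 fell, 13.9 and 2.39%, and their median was 0.18. Over all genes tested, the shares were 6.71 and 5.11% and the median -0.03. Without the members and the genes of the lists, 32 of 231 rose and 5 fell. Leaving out any single library, fewer genes of the family rose and no more of them fell. Among all genes tested, fewer rose and fewer fell in these fits too. No test was made of the 9 members against this family.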

How the data were processed

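The 4 libraries were grouped by their titles, 2 at 0.5 h after transfer to glutamine and 2 at 0 h. The authors deposited RPKM values per gene, scaled by TMM (trimmed mean of M-values) per the file name. The deposited table also gives each gene's length in kilobases and its highest fraction of multi-mapped reads. Per the submitters' processing notes, SAMtools (version not stated) and the build TAIR10 were used. The sources used here name no aligner, counter or strand setting.

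RPKM times gene length lies on steps with 0.5 read added per gene, per the deposited values. Reads recovered from them were whole, within 0.05 read, for at least 99.992% of genes without multi-mapped reads. Intervals of reads cover counting error only. Names and product names came from the RefSeq annotation of TAIR10.1. Overlaps were taken from its gene coordinates, and no sequences were used.

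A gene was fitted where its mean reached 1 RPKM, using limma 3.58.1 in R 4.3.3 on log2(RPKM + 1), with an intensity trend, the group as the single term, and two-sided p-values adjusted over all genes. Residual degrees of freedom numbered 2 and prior ones 4.824. An exact permutation test of 2 against 2 libraries cannot go below p = 0.333 and was not used. The labels do not say that libraries came from separate cultures, so p-values measure the spread between libraries, which may be technical. Replicates differed beyond counting error (chi-square per gene 15.3 at 0.5 h and 16.5 at 0 h). The fit was also run on simulated reads with 200 genes changed and a common level of spread for all genes. That setting is simpler than these data, so no error rate is drawn from it.

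The members and lists were chosen with earlier results of these data known. By rule, the text names all members and the 4 genes of each list with the smallest p. The rule adds the 2 tissue markers of each list with the highest mean, and the 3 genes most like PEPR1 and FRK1. Further list and marker genes were named after their values were seen, among them WRKY53, WRKY11, LHCA4, LHCB6, CA1, GAPA1, COBL9, PIP1, PIP2 and BIP3. Alternatives tried were other pseudocounts (0.1 and 5), a minimum mean of 5 RPKM or none, quantile or median-of-ratios scaling, limma made robust or without its trend, a replicate block, leaving out each library, limma-voom on recovered reads, leaving out genes with a multi-mapped fraction above 0.05 and, chosen after seeing the data, adding the reads of paired genes.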

Additional observations from a re-analysis of the deposited data

How the results depend on the processing

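Without a minimum on the mean RPKM, limma called 0 genes higher and 2 lower of 33602, and of the members and of the lists 0 in either direction. Leaving out 1 library each, which leaves a lone sample assumed to vary like the other group, all genes called higher numbered 506 to 1158 and lower 233 to 824. Under these fits 1 to 2 members were called higher and 0 to 1 lower, and 7 to 16 genes of the lists higher and 0 lower. Without genes of over 0.05 multi-mapped share, 1 member was called higher, since SOBIR1 was left out, and 0 list genes were called lower, since WRKY53 was left out. The fall of FRK1 was not called, so that 0 members were called lower, under median-of-ratios scaling (adjusted p = 0.052), quantile scaling (0.059), limma without the trend (0.0503) and the replicate block (0.054). For the losses not explained by a gene left out, the cause was not tested. The labels do not say that the replicate numbers mark a shared culture, so the numbers were not taken to pair the samples. Same-numbered libraries had a correlation of -0.08 in their deviations from the group means. The block left 1127 genes called higher and 834 lower.

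Changes that switched sign when a library was left out were all uncalled. With 1 library left out, BIK1 ran from -0.068 to 0.17, RBCS1A from -0.040 (and -0.022 without the 1st at 0 h) to 0.049, PYK10 from -0.72 to 0.070 and CASP1 from -0.53 to 0.42 (and 0.21 without the 2nd at 0.5 h). NILR1 passed with limma-voom (adjusted p = 0.036) and FER with quantile scaling (0.048). Among the 10 members PEPR2 had the fewest reads, 25.3 to 69.4 in a library, and some genes of the lists had fewer.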

Other observations

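Peptide ligand precursors differed between the libraries of each group, a pattern chosen after the values were seen. Of the 13 genes of that list, 11 at 0.5 h and 10 at 0 h were higher in the 1st library than in the 2nd. These are 84.6 and 76.9%, beside 46.7 and 57.1% of all genes tested. Libraries were not taken to be paired by number, so a count over both times depends on the numbering. With the numbers given, 8 were higher in the 1st library at both times, 61.5%, beside 27.6% of all genes tested. The same held for 6 of 12 genes of ER quality control (50%), 7 of 17 early pattern-response genes (41.2%), 4 of 19 other co-receptors and regulators (21.1%) and 2 of 22 cytoplasmic kinases and early signalling genes (9.09%). PIP1, a precursor of the RLK7 ligand, had 20.4 and 13.2 RPKM at 0.5 h, and 18.8 and 7.80 RPKM at 0 h. PIP2 had 4.84 and 3.84 RPKM at 0.5 h, and 4.59 and 1.85 RPKM at 0 h. PROPEP3 had 37.5 and 28.2 RPKM at 0.5 h, and 26.4 and 19.3 RPKM at 0 h. Of the 20 other receptors for patterns and peptides, 1 was higher in the 1st library at both times. PEPR1 and RLK7, picked after their values were seen, were higher in the 2nd library than in the 1st at both times. PEPR2 was higher in the 1st library at 0.5 h (0.762 and 0.581 RPKM) and in the 2nd at 0 h (0.316 and 0.328 RPKM). The share of all genes with the order of PEPR1 was not taken, and a link to the precursors was not tested.

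BIP3, a chaperone gene of the endoplasmic reticulum known to rise under folding stress, was too low to be tested. It had 0.844 and 0.905 RPKM at 0.5 h, and 0.226 and 0.255 RPKM at 0 h, whereas the tested genes of its list did not pass.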
